A study of Mus musculus with 36 samples.

Results

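Mecom and Prdm16 encode related zinc finger transcription factors of the PRDM family, and both are needed to keep hematopoietic stem cells (HSCs). Chromatin accessibility around the genes was examined in mouse bone marrow by ATAC-seq. In this assay a transposase cuts and tags DNA that is not tightly packed, so that reads pile up where chromatin is open. Peaks of the 36 libraries were joined into 105005 regions wherever they shared 1 bp or more, and a region was kept when its centre lay nearer to a transcription start site (TSS) of Mecom or Prdm16 than to that of any other protein-coding transcript. This gave 56 regions, 38 of Mecom and 18 of Prdm16, which are numbered here along the chromosome (Mecom_1 to Mecom_38 and Prdm16_1 to Prdm16_18). The nearest TSS need not be that of the gene a region acts on.

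All mice were of the C57BL/6 strain, with no mutation or treatment named in the labels. Young mice were 10 weeks old and aged mice 20 months old. The scheme that the study gives for its RNA-seq and ATAC-seq shows marrow combined from mice of an age and then sorted. Lineage-negative cells were sorted by surface markers into 8 fractions. HSCs carried Sca-1, c-kit and CD150 and lacked CD34, CD48 and Flt3. The multipotent progenitors (MPPs) were Sca-1+ c-kit+ CD34+, and were CD150+ CD48- Flt3- in MPP1, CD150+ CD48+ Flt3- in MPP2, CD150- CD48+ Flt3- in MPP3 and CD150- CD48+ Flt3+ in MPP4. The oligopotent progenitors were GMPs, which give granulocytes and macrophages (Sca-1- c-kit+ FcgR+ CD34+), MEPs, which give megakaryocytes and erythrocytes (Sca-1- c-kit+ FcgR- CD34-), and CLPs, which give lymphocytes (IL-7+ in the labels, stained for the IL-7 receptor according to the methods, with low Sca-1 and low c-kit). HSCs had 4 libraries per age and each of the other 7 fractions had 2 per age. The study calls the HSC libraries biological replicates. Since libraries of 1 age may still come from 1 pool of animals, the p-values measure the spread between libraries, which may be in part technical.

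The deposited lists hold no read counts, so a region was either called in a library or not, and a called region had a fold enrichment, the ratio of signal at its summit to the local background. Reads were subsampled by the authors to the same number in every library, but the share of the 105005 regions that a library called still differed, with a mean of 54.8% in GMPs, 9.35% in MEPs and between 29.01% and 33.2% in the other fractions. Of the markers set for each fraction, a region within 1000 bp of the TSS of Elane, a neutrophil granule protease, was called in 4 of 4 GMP libraries and in no library of another fraction. A region at Il7r, the interleukin-7 receptor, was called in 4 of 4 CLP, MPP4 and GMP libraries each and in no library of another fraction. Other markers did not separate the fractions: the HSC markers Hlf and Meis1 and the MPP4 marker Flt3 were called in all HSC, MPP and GMP libraries, and the CLP marker Ebf1 was called in 8 of 8 HSC and 3 of 4 CLP libraries. No region lay within 1000 bp of a TSS of Gata1 or Klf1, which mark erythroid cells, or of the T cell gene Cd3e and the B cell gene Cd79a.

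The Mecom locus makes a long protein, MDS1-EVI1, whose PR domain places it in the histone methyltransferase family, and a short protein, EVI1, which starts from an internal promoter and lacks that domain. MDS1-EVI1 and PRDM16 resemble each other in domain structure, and both are known for keeping stem cells in the marrow, while EVI1 is best known as an oncogene in myeloid leukemia. Mecom (ENSMUSG00000027684.16) spans 596.7 kb on the minus strand of chromosome 3 (chr3:29951296-30548008, mm10), with 6 distinct coding TSSs, of which the one at position 30509733 starts the long transcript and those at 30013156 and 30013505 start short ones. Prdm16 (ENSMUSG00000039410.16) spans 320.7 kb on the minus strand of chromosome 4 (chr4:154316125-154636873) and has 1 coding TSS, at 154636866.

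Most regions were intronic. Introns held 33 of the 38 Mecom regions and 17 of the 18 Prdm16 regions, against 40.6% of all regions in the catalogue. The promoter window, which ran from 1000 bp before a TSS to 100 bp after it, held 1 Mecom region and no Prdm16 region, against 12.1% of the catalogue. Of the Mecom regions 35 lay inside the annotated span of the gene, and of the Prdm16 regions 17. The 18 Prdm16 regions are not the whole locus: 26 regions lay within the Prdm16 gene body or 10 kb of it. Those that are not members lie nearer to a protein-coding TSS of another gene. Single-library regions were 7 of 38 for Mecom and 7 of 18 for Prdm16, against 18.4% of the catalogue.

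The sequences below were read from the reference genome (RefSeq, GRCm38, which is mm10) as the plus strand, 100 bp to each side of the median summit, for the regions on which the results turn. The first is the Prdm16 region called in all HSC, MPP and MEP libraries, and the others are the Mecom regions that were strongest in HSCs or were called mainly in HSCs and MPP1. Capitals mark matches, on either strand, to 1 of 14 consensus motifs: those of the GATA factor family (AGATAA), ETS (CCGGAA, or in a second form AGGAAG), RUNX (TGTGGT), E-boxes (CAGCTG, or in a second form CAGATG), MEIS (TGACAG), HOX-PBX (TGATTNAT), C/EBP (TTGCNNAA), FOX (TGTTTAC), AP-1 (TGANTCA), STAT (TTCNNNGAA), CRE (TGACGTCA) and the CTCF core.
Prdm16_7, chr4:154541690-154541890: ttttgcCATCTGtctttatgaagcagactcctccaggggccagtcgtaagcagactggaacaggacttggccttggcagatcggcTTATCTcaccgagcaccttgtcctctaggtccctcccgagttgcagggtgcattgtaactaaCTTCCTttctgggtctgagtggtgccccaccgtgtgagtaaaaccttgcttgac
Mecom_9, chr3:30066603-30066803: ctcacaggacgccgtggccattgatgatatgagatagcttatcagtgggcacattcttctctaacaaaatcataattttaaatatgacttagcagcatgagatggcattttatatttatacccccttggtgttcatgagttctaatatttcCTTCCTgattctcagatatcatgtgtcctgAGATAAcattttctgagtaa
Mecom_25, chr3:30330532-30330732: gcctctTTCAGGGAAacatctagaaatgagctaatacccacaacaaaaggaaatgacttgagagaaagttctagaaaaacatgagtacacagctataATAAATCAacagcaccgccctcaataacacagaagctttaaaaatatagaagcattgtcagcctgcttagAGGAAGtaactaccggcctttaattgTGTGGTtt
Mecom_33, chr3:30456041-30456241: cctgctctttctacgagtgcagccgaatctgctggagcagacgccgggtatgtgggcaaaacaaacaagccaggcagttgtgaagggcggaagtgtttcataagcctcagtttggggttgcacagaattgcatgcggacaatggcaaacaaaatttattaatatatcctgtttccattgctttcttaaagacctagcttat
Mecom_34, chr3:30477071-30477271: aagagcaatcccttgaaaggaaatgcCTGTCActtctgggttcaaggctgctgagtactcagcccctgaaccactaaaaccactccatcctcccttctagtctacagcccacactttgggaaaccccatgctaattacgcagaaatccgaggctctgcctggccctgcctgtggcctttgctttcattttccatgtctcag

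Prdm16_7 lies in an intron, 95.04 kb downstream of the TSS, and its window holds a GATA match 12.5 bp from the summit, an ETS match (AGGAAG) and an E-box match (CAGATG). It was the sole Prdm16 region with the GATA letters, which were in 6 of the 38 Mecom windows and in 10.3% of 104825 windows over the catalogue. Mecom_25 holds a HOX-PBX match 0.5 bp from the summit, a motif in 2.63% of all windows, together with an ETS, a RUNX and a STAT match. None of the 14 motifs was matched in Mecom_33, which says only that these letters are not in its window. Mecom_34 holds a MEIS match, and Mecom_9 a GATA and an ETS match. Over all members, AGGAAG was in 16 of 38 Mecom and 6 of 18 Prdm16 windows (44.7% of the catalogue) and the RUNX letters were in 5 and 0 (25.6%). The E-box CAGCTG was in 4 and 1 windows (14.6%), the E-box CAGATG in 6 and 2 (16.1%), the MEIS letters in 6 and 2 (16.1%) and the CTCF core in 4 and 4 (8.18%). These matches are descriptions of sequence, not of binding.

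The TSSs of the short and of the long Mecom transcripts are described first. The short transcripts' TSS at 30013156 lies in Mecom_6 (chr3:30012980-30013318, with its centre 7 bp from that TSS), while the one at 30013505 lies just beyond its end. Mecom_6 is the sole promoter region among the 56. Mecom_6 was called in 0 of 8 HSC and 0 of 4 MPP1 libraries, in 1 of 4 MPP2, 2 of 4 MPP3, 3 of 4 MPP4, 3 of 4 GMP, 0 of 4 MEP and 2 of 4 CLP libraries. Where it was called the fold enrichment was low, between 3.95 and 8.85. Thus the EVI1 promoter had no called peak in any of the 12 CD48- libraries, HSC and MPP1, and a peak in 6 of the 12 CD48+ MPP libraries (raw p = 0.0137, Fisher's exact test, two-sided). After adjustment over the 71377 regions called in these fractions the difference did not pass the threshold (adjusted p = 0.181).

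Near the TSS of the long transcript, no region fell within the promoter window, but 2 regions flanked it. Mecom_37 (chr3:30508210-30508991, in the first intron, 1133 bp downstream) and Mecom_38 (chr3:30514950-30515502, 5493 bp upstream, inside the annotated span of the gene but outside its coding transcripts) were each called in all 32 libraries outside MEPs and in 0 of 4 MEP libraries. This pattern was shared by 3.02% of the catalogue. Both are rich in G and C: their windows hold 75.1% and 77.1% GC with 21 and 30 CpG sites, against medians of 49.8% and 3 in the catalogue. The density of CpGs in Mecom_38 is shown with each CpG in capitals.
Mecom_38, chr3:30515072-30515272: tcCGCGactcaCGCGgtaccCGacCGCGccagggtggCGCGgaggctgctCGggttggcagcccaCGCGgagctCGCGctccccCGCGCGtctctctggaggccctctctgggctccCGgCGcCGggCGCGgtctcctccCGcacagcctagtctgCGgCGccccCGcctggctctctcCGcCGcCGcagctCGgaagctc

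Mecom_37 had its strongest signal in GMPs. In HSCs the fold enrichment was 6.26, 6.3, 7.82 and 7.65 in young and 6.39, 5.06, 7.73 and 5.3 in aged libraries. In GMPs it was 17.2 and 16.1 in young and 12.7 and 13.2 in aged libraries. All 4 GMP libraries lay above all 8 HSC libraries, and also above the 4 CLP libraries, at 9.43, 7.83, 9.18 and 8.85. This GMP difference was not tested, since the fits were set for HSC and MPP libraries.

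The single Prdm16 TSS had no region within its promoter window. The nearest, Prdm16_17 (chr4:154636260-154636395, 539 bp downstream), was called in 1 young GMP library alone. Next to it, Prdm16_16 (chr4:154635570-154636026, 1068 bp downstream, 75.1% GC and 25 CpG sites) was called in 4 of 4 GMP, 2 of 4 MPP3 and 1 of 4 MPP2 libraries, and in none of the 8 HSC libraries. In the GMP libraries it reached 4.87, 4.76, 8.68 and 4.74 in fold enrichment. In HSCs the nearest called region was Prdm16_14, 18.7 kb into the gene. At the remaining coding TSSs of Mecom, which start internal transcripts, the nearest regions were Mecom_5 (1757 bp away, called in 2 libraries, 1 of HSC and 1 of MPP1), Mecom_19 (1285 bp away) and Mecom_15 (20.9 kb away).

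**Figure D1:**
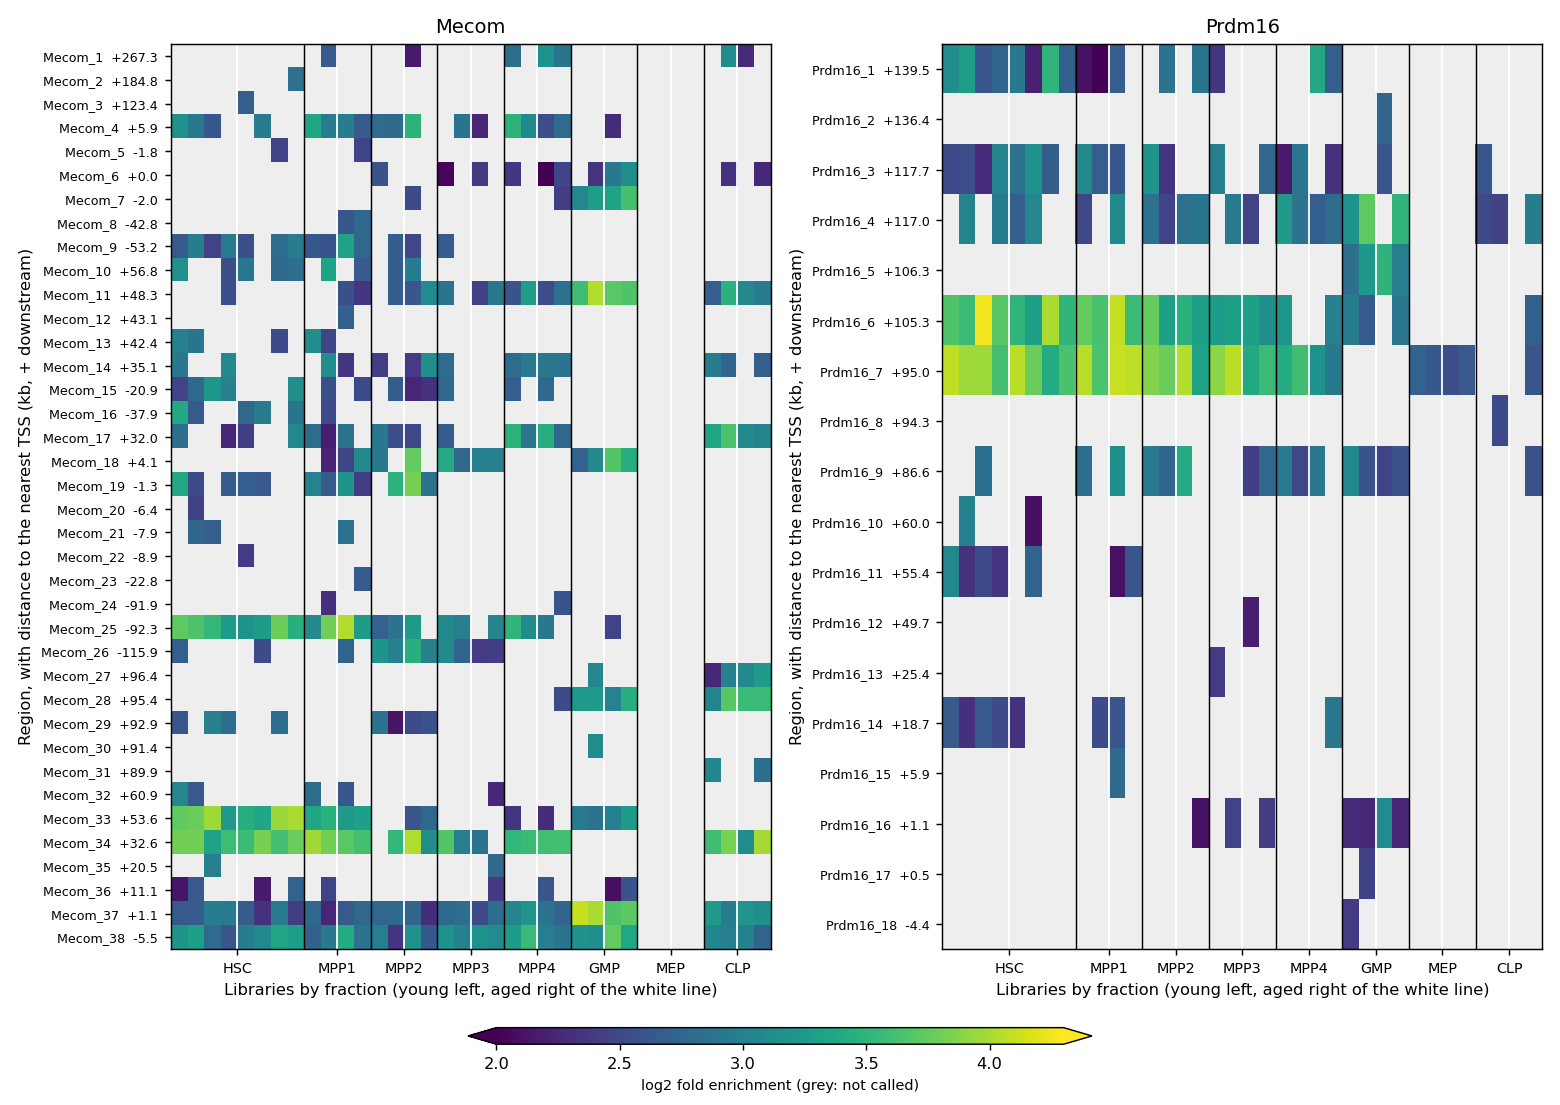
Fold enrichment (log2 scale, colour) of each of the 38 Mecom and 18 Prdm16 regions (rows, in order along the chromosome, with the distance to the nearest TSS in kb) in the 36 libraries (columns, by fraction, young left and aged right of the white line), with grey where a region was not called. Prdm16_7 is the one row coloured in MEPs, and the rows of Mecom_37 and Mecom_38 are coloured in every other fraction.

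Over the 24 HSC and MPP libraries and the 12 oligopotent libraries, 13 of the 56 regions were called more often in HSCs and MPPs and 3 more often in oligopotent cells (Fisher's exact test per region, Benjamini-Hochberg adjusted over all 105005 regions, threshold 0.05). For Mecom the numbers were 9 and 2 of 38, and for Prdm16 they were 4 and 1 of 18. Over the catalogue, 11.2% of regions were called more often in HSC and MPP libraries and 14.4% more often in GMP, MEP and CLP libraries. The median difference in the share of libraries calling a region, HSC and MPP minus oligopotent, was 10.4 percentage points over the Mecom regions, 4.17 over the Prdm16 regions and 0.0 over the catalogue. Fisher's test takes the libraries of each side as independent, although they come in fractions whose libraries share a pattern. Its p-values do not allow for this, so a region called in GMPs alone, as Prdm16_5 was, can pass.

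The MEP libraries, which called the fewest regions, weigh on these counts. The part of their low number of peaks in this was not tested. With the 4 MEP libraries left out, an alternative chosen after seeing the data, 5 Mecom and 2 Prdm16 regions were called more often in HSCs and MPPs than in GMPs and CLPs, and the same 3 regions as before less often. In this comparison 4.93% of the catalogue was called more often in HSCs and MPPs and 23% more often in GMPs and CLPs. The regions that no longer passed were Mecom_26, Mecom_34, Mecom_37, Mecom_38, Prdm16_3 and Prdm16_6. With peaks of a -log10 q of at least 10 alone, Mecom_4, Mecom_9, Mecom_15, Mecom_19, Mecom_26, Mecom_38, Prdm16_1, Prdm16_3 and Prdm16_5 did not pass. When peaks had to cover 50% of a region, Mecom_15, Mecom_26, Mecom_27, Mecom_37 and Prdm16_1 did not pass (adjusted p between 0.0679 and 0.212, Fisher's exact test). With any 1 MEP library left out, Mecom_37 and Mecom_38 did not pass (adjusted p up to 0.0779, Fisher's exact test), and with any 1 GMP library left out Prdm16_5 did not (up to 0.0848). Prdm16_3 did not pass without young GMP replicate 1, young GMP replicate 2 or aged GMP replicate 2 (up to 0.0578).

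The Mecom region with the smallest p was Mecom_25 (chr3:30330352-30330807), an intronic region 92.3 kb upstream of the nearest TSS, which starts an internal transcript. It was called in 8 of 8 HSC, 4 of 4 MPP1, 3 of 4 MPP2, 3 of 4 MPP3 and 3 of 4 MPP4 libraries, and in 1 of 4 GMP, 0 of 4 MEP and 0 of 4 CLP libraries (adjusted p = 5.20e-04, Fisher's exact test). Its fold enrichment was 13.2, 12.6, 11.6 and 9.4 in young HSCs and 9.09, 9.68, 13.8 and 10.95 in aged HSCs, so the ages overlapped. The single GMP call was weak, at 5.51.

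Mecom_34 (chr3:30476965-30477324), 32.6 kb into the first intron of the long transcript, was called in 22 of 24 HSC and MPP libraries and in 4 of 12 oligopotent ones (adjusted p = 0.00982, Fisher's exact test). The 4 oligopotent calls were the 4 CLP libraries, with fold enrichments of 12.1, 14.3, 8.85 and 15.9. In HSCs the values were 13.91, 13.99, 10.01 and 12.01 in young and 11.9, 14.2, 12.2 and 13.7 in aged libraries. In 3 of 4 CLP libraries the value thus lay within or above the range of HSCs, and the region had no call in GMPs or MEPs.

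Mecom_9 (chr3:30066545-30066900), 53.2 kb upstream of the short transcripts' TSSs, was called in 7 of 8 HSC and 4 of 4 MPP1 libraries, in 2 of 4 MPP2, 1 of 4 MPP3 and 0 of 4 MPP4 libraries, and in 0 of 12 oligopotent ones (adjusted p = 0.0113, Fisher's exact test). Its fold enrichment in HSCs ranged from 5.56 to 7.88, at percentiles 11.6 to 44.8 of the regions called in the same library. The other Mecom regions that were called more often in HSCs and MPPs were Mecom_4 (17 of 24 against 1 of 12), Mecom_15 (13 of 24 against 0), Mecom_19 (12 of 24 against 0), Mecom_26 (11 of 24 against 0), Mecom_37 and Mecom_38. For Mecom_37 and Mecom_38 the whole difference lay in the 4 MEP libraries.

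The 2 Mecom regions that were called more often in oligopotent cells lie close together, in the first intron of the long transcript. Mecom_28 (chr3:30414127-30414631, 95.4 kb downstream of the TSS) was called in 4 of 4 GMP and 4 of 4 CLP libraries and in 1 of 24 HSC and MPP libraries, an aged MPP4 library (adjusted p = 0.00343, Fisher's exact test). The fold enrichment of Mecom_28 was 9.56, 9.41, 8.13 and 10.9 in GMPs, 8.23, 12.99, 11.9 and 11.8 in CLPs and 5.79 in the MPP4 library. Mecom_27 (chr3:30413087-30413512), its neighbour, was called in 4 of 4 CLP libraries, in 1 GMP library and in 0 of 24 HSC and MPP libraries (adjusted p = 0.0245, Fisher's exact test). Mecom_31, in the same stretch, was called in 2 CLP libraries alone (adjusted p = 0.223, Fisher's exact test).

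Among the Prdm16 regions, Prdm16_7 (chr4:154541520-154542138) was called in 24 of 24 HSC and MPP libraries, in 4 of 4 MEP, 0 of 4 GMP and 1 of 4 CLP libraries (adjusted p = 0.00291, Fisher's exact test). It was the sole one of the 56 regions that any MEP library called. MEP libraries called a mean of 9.35% of the catalogue, 0% of the Mecom regions and 5.56% of the Prdm16 regions. The fold enrichment of Prdm16_7 was 16.9, 15.6, 15.6 and 12.3 in young HSCs, 16.7, 13.7, 10.7 and 12.4 in aged HSCs, and 6.63, 6.15, 5.83 and 6.23 in MEPs. All MEP values lay below all HSC values. This difference was not tested.

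Prdm16_1 (chr4:154497043-154497616), 139.5 kb into the gene, was called in 8 of 8 HSC libraries, in 8 of 16 MPP libraries and in 0 of 12 oligopotent ones (adjusted p = 0.00432, Fisher's exact test). Prdm16_6 (chr4:154531291-154531791), 105.3 kb into the gene, was called in 22 of 24 and in 4 of 12 libraries (adjusted p = 0.00982, Fisher's exact test). Its fold enrichment was 12.7, 11.9, 19.2 and 13.04 in young HSCs and 11.4, 9.88, 16.1 and 11.4 in aged HSCs, and 7.79, 6.28 and 7.49 in the 3 GMP libraries that called it. Prdm16_3 was called in 17 of 24 and 2 of 12 libraries (adjusted p = 0.0349, Fisher's exact test). In the other direction, Prdm16_5 (chr4:154530394-154530649) was called in 4 of 4 GMP libraries and in no other library (adjusted p = 0.0349, Fisher's exact test), although it is the immediate neighbour of Prdm16_6.

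**Figure D2:**
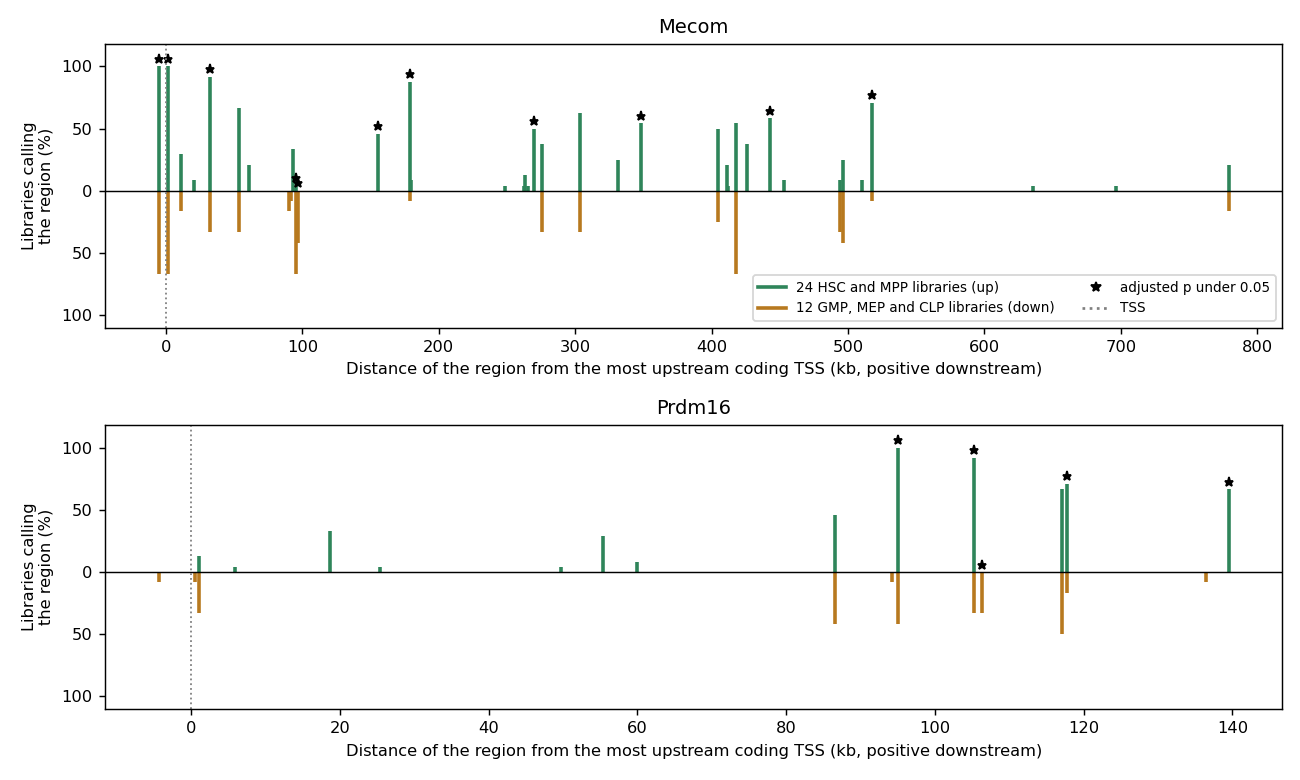
Share of libraries that called each region (vertical axis, %), upwards for the 24 HSC and MPP libraries and downwards for the 12 GMP, MEP and CLP libraries, by the distance of the region from the most upstream coding TSS in kb, with stars where the adjusted p was under 0.05. The starred upward bars of Prdm16 lie between 95.04 and 139.5 kb into the gene, and the starred downward bars of Mecom lie close together at about 95.4 kb.

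Within the HSC and MPP compartment, HSC and MPP1 are the CD48- fractions and MPP2, MPP3 and MPP4 the CD48+ fractions. Of 48 member regions called in these libraries, 1 was called more often in the CD48- fractions and 0 more often in the CD48+ fractions (Fisher's exact test, adjusted over 71377 regions). Here too the test takes the libraries of each side as independent, without regard to their fractions. Over the catalogue, 1.44% of regions were called more often in HSC and MPP1 libraries and 1.41% more often in MPP2, MPP3 and MPP4 libraries, so 1 of 48 is near the background.

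The region that passed was Mecom_33 (chr3:30455946-30456410), 53.6 kb into the first intron of the long transcript. It was called in 8 of 8 HSC and 4 of 4 MPP1 libraries, and in 2 of 4 MPP2, 0 of 4 MPP3 and 2 of 4 MPP4 libraries (adjusted p = 0.0471, Fisher's exact test). It passed in each of the 24 fits that left out 1 library (adjusted p between 0.0173 and 0.0450). Its fold enrichment was 13.3, 13.7, 15.7 and 9.44 in young HSCs and 10.8, 10.3, 15.5 and 16.1 in aged HSCs. MPP1 libraries gave 10.3, 11.1, 9.4 and 9.82. The MPP2 calls were 6.12 and 6.85, both in aged libraries, and the MPP4 calls 5.1 and 4.91, all below every HSC and MPP1 value. Mecom_33 was called again in 4 of 4 GMP libraries, at 7.73, 7.26, 7.95 and 9.55, and in no MEP or CLP library.

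The next smallest p-values did not pass the threshold. Mecom_9 was called in 11 of 12 CD48- and 3 of 12 CD48+ libraries (adjusted p = 0.0809, Fisher's exact test) and Mecom_16 in 6 and 0 (adjusted p = 0.181). Prdm16_11 (chr4:154581286-154581660) was called in 7 CD48- libraries, 4 of them young HSC libraries, and in no library of any other kind (adjusted p = 0.0947, Fisher's exact test). Prdm16_1 and Prdm16_14 each had an adjusted p of 0.325 in the same direction. In the other direction, Mecom_11 was called in 3 of 12 CD48- and 10 of 12 CD48+ libraries (adjusted p = 0.181), Mecom_26 in 3 and 8 (adjusted p = 0.588) and Prdm16_9 in 3 and 8 (adjusted p = 0.588). Prdm16_4, in 6 and 10, and Prdm16_16, in 0 and 3, each had an adjusted p of 0.871. Mecom_11 had its highest fold enrichment in GMPs, at 11.99, 16.4, 13.1 and 12.7. Among the regions called in the same library these values lay at percentiles 57.7, 77.25, 63.3 and 63.2. The CLP values lay at percentiles 26.25, 70.1, 50.8 and 39.8, so GMPs and CLPs overlapped on that scale.

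The number of regions called per library was compared next. HSCs called 12.6 ± 2.7 of the 38 Mecom regions (mean ± SD, n = 8) and 6.0 ± 1.7 of the 18 Prdm16 regions. For Mecom the other fractions called 15.3 ± 3.1 (MPP1), 12.8 ± 3.8 (MPP2), 9.0 ± 2.2 (MPP3), 11.3 ± 2.2 (MPP4), 9.25 ± 1.7 (GMP), 0 (MEP) and 9.25 ± 0.96 (CLP), with n = 4 each. For Prdm16 they called 5.75 ± 2.5 (MPP1), 5.0 ± 0.82 (MPP2), 4.75 ± 0.50 (MPP3), 4.75 ± 0.96 (MPP4), 5.5 ± 0.58 (GMP), 1.0 in every library (MEP) and 2.0 ± 1.6 (CLP). MEPs stood below all other fractions for Mecom, and the HSC and MPP fractions overlapped.

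HSCs were compared with each of the 7 other fractions for both genes by exact permutation tests over libraries, two-sided and adjusted over the 14 comparisons. HSCs called 12.6 more Mecom regions than MEPs (adjusted p = 0.0141) and 5.0 more Prdm16 regions (adjusted p = 0.0141, exact test), which is the smallest p the design allows (0.00202) after adjustment. HSCs also called 4.0 more Prdm16 regions than CLPs (adjusted p = 0.0283, exact permutation test). With 1 library left out this last difference stayed past the threshold only without aged HSC replicate 3, aged HSC replicate 4 or aged CLP replicate 2, and the adjusted p was between 0.0566 and 0.0849 without any of the other 9 libraries. The other 11 comparisons did not pass, with HSCs calling 3.63 more Mecom regions than MPP3 (raw p = 0.0444, adjusted p = 0.146, exact permutation test).

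The result depends on how many regions a library called in all. Per 1000 called regions, HSCs had 0.407 ± 0.068 Mecom regions (n = 8), MPP3 0.290 ± 0.063, GMPs 0.160 ± 0.020 and CLPs 0.304 ± 0.004 (n = 4 each). On this scale the differences from MPP3 (adjusted p = 0.0404), GMPs (adjusted p = 0.0141) and CLPs (adjusted p = 0.0377, exact permutation tests) passed the threshold. With peaks of a -log10 q of at least 10 alone, the count difference for Mecom shrank instead, from 3.38 to 0.75 regions against both GMPs and CLPs (adjusted p = 0.916, exact permutation tests). For Prdm16 the values were 0.195 ± 0.057 in HSCs and 0.0964 ± 0.016 in GMPs (adjusted p = 0.0377, exact permutation test). MEPs had 0.102 ± 0.0059 Prdm16 regions per 1000, so the difference from HSCs was smaller in proportion on this scale than in the counts (adjusted p = 0.0377, exact permutation test).

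**Figure D3:**
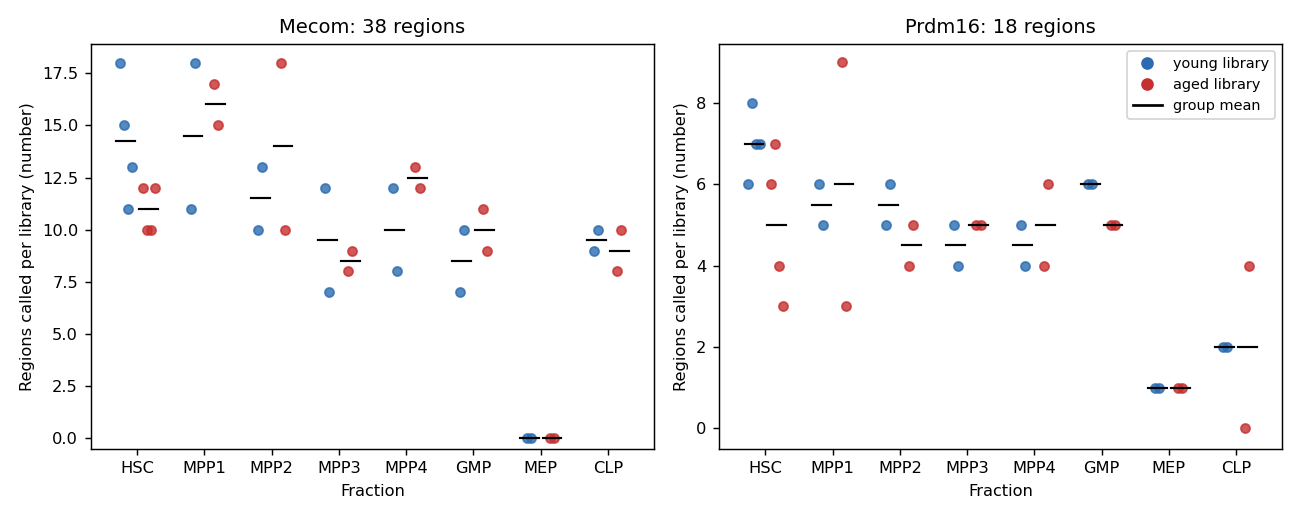
Number of Mecom and Prdm16 regions called in each library (points, vertical axis) by fraction and age, with the group mean as a line. Every MEP library called 0 Mecom regions and 1 Prdm16 region, and the young and aged points overlapped in most fractions.

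Whether the loci changed with age was asked first within HSCs, with 4 libraries per age. Young HSC libraries called 18, 15, 11 and 13 Mecom regions and aged ones 12, 10, 10 and 12, so the ages overlapped. The difference, aged minus young, was -3.25 regions (p = 0.114, exact permutation test of 4 against 4, two-sided, in which the smallest possible p is 0.0286). Without young HSC replicate 3, which called the fewest regions of all HSC libraries (26701), the difference was -4.33 (p = 0.0286, exact). For Prdm16 the numbers were 6, 8, 7 and 7 in young and 6, 7, 4 and 3 in aged HSCs, a difference of -2.0 (p = 0.2, exact). When peaks had to cover 50% of a region, the differences were -1.25 for Mecom and -1.0 for Prdm16. With equal numbers of peaks per library they were -2.0 for Mecom and -1.5 for Prdm16. With a -log10 q of at least 10 they were -2.5 for Mecom and -0.25 for Prdm16. With regions within 10 kb of the gene body they were larger, at -3.75 for Mecom (p = 0.0857) and -2.5 for Prdm16 (p = 0.171, exact permutation tests). The size of the difference varied between the replicates: for Mecom it was -5.5 in replicates 1 and 2 alone and -1.0 in replicates 3 and 4 alone, and for Prdm16 it was -0.5 and -3.5. Over all fractions, with ages permuted within each fraction, the mean difference was 0.41 regions for Mecom (p = 0.652) and -0.31 for Prdm16 (p = 0.553, exact permutation tests).

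Single regions were then tested for age. Of 53 regions that could be tested over all fractions, 0 passed the threshold and 0 had an unadjusted p under 0.05 (exact conditional test with fraction as stratum, two-sided). Across the catalogue 0% of 85292 regions passed in either direction, so the members' count is that of the background. In HSCs, 0 member regions were called in 4 libraries of an age and in 0 of the other. Of the 51625 regions called in any HSC library, 0.43% were called in this way in aged HSCs alone and 0.277% in young HSCs alone. Of the 35 member regions called in HSCs, 16 were called in more young than aged libraries (12 of Mecom and 4 of Prdm16), 6 in more aged than young (all of Mecom) and 13 in equal numbers. Of the same 51625 regions, 31.1% had more young and 25% more aged calls.

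The largest differences in HSC calls were in the direction of fewer aged calls. Mecom_15 (chr3:30161008-30161639) was called in 4 young and 1 aged HSC library, with values of 5.55, 6.82, 9.3 and 8.01 in young and 8.78 in aged. Prdm16_11 was called in 4 young and 1 aged HSC library, but also in 2 aged and 0 young MPP1 libraries. Prdm16_14 (chr4:154617921-154618406) was called in 4 young and 1 aged HSC library, with 5.0 to 6.32 in young and 5.04 in aged. Of the other Mecom regions, Mecom_4, Mecom_14, Mecom_21, Mecom_29 and Mecom_32 each had 2 more young than aged calls, and the 6 regions with more aged calls each had 1 more. The age test over all fractions gave p = 0.438 for Mecom_15, 1.0 for Prdm16_11 and 0.631 for Prdm16_14 (exact conditional test, 36 libraries).

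**Figure D4:**
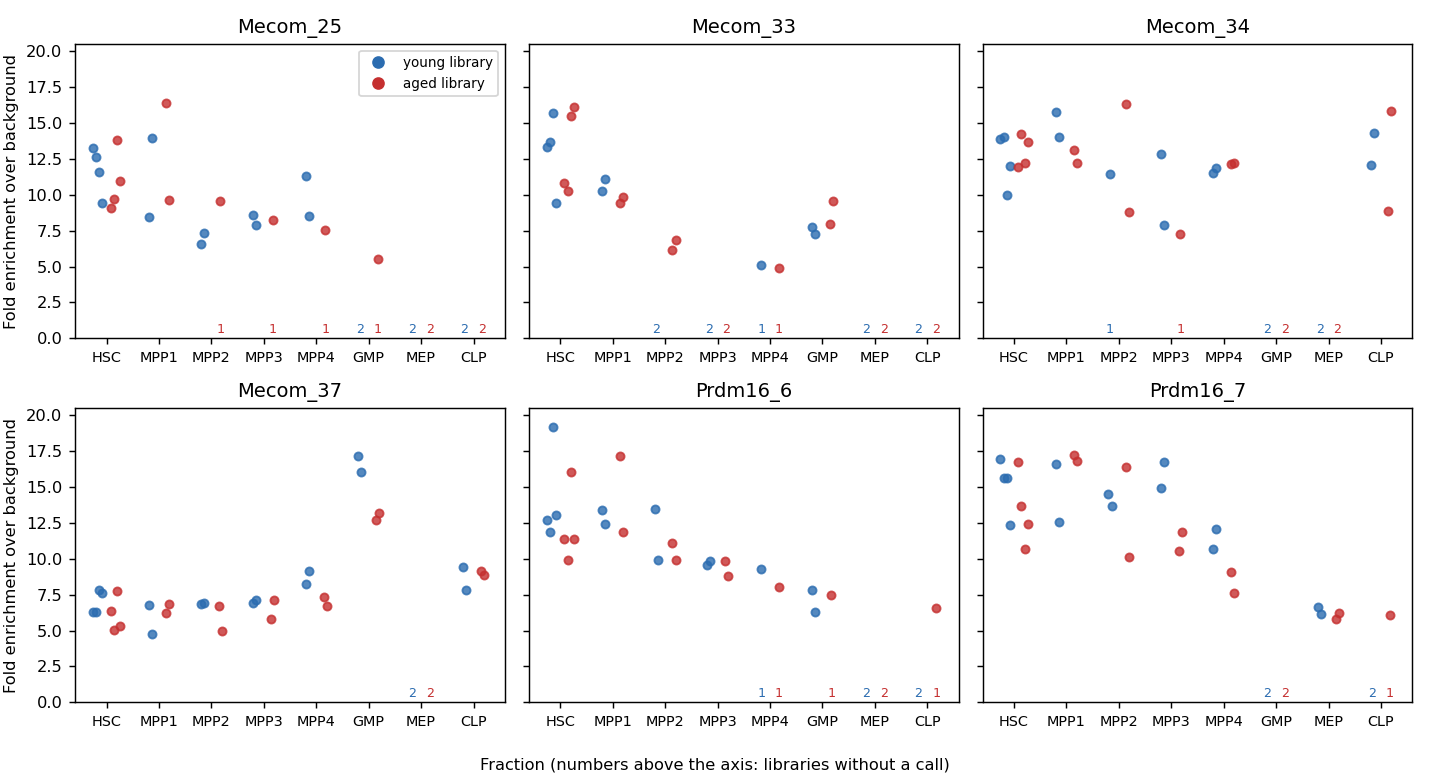
Fold enrichment over the local background (vertical axis, linear) at 6 regions in each library that called them (points, young in blue and aged in red), by fraction, with the number of libraries without a call printed above the axis. Mecom_37 is highest in GMPs, between 12.7 and 17.2, while Prdm16_7 is lowest in MEPs, between 5.83 and 6.63, apart from 1 CLP library at 6.09.

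Signal strength was compared at regions called in every library of a fit, as log2 fold enrichment centred on the library median (limma, Benjamini-Hochberg adjusted over all regions of the fit). In HSCs, 8 member regions could be fitted, among 17340 regions called in all 8 libraries. None passed for age, with adjusted p-values of 0.739 to 0.987, and 0% of all regions passed, while 1571 regions had an unadjusted p under 0.05. For Prdm16_7 the difference, aged minus young, was -0.17 on the log2 scale (SE 0.16, 95% interval -0.51 to 0.17). In Mecom_38 the HSC values were 9.13, 9.82, 7.0 and 6.08 in young and 7.84, 8.44, 10.2 and 9.69 in aged libraries. The difference was 0.02 for Mecom_33 (SE 0.19, interval -0.37 to 0.42) and 0.09 for Mecom_34 (SE 0.14, interval -0.22 to 0.39). The largest estimate was 0.21 for Mecom_38 (SE 0.15, interval -0.11 to 0.53). With 1 library left out, the differences ranged from -0.28 to -0.05 for Prdm16_7, from -0.08 to 0.15 for Mecom_33, from 0.01 to 0.13 for Mecom_34 and from 0.13 to 0.28 for Mecom_38, and none passed.

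Among HSCs and MPPs, 3 member regions, Mecom_37, Mecom_38 and Prdm16_7, were called in all 24 libraries and could be fitted with fraction and age as terms, among 13465 regions. Prdm16_7 was weaker in MPP4 than in HSCs, by -0.59 on the log2 scale (SE 0.13, 95% interval -0.86 to -0.33, limma adjusted p = 0.00171). The MPP4 values were 10.7 and 12.1 in young and 9.07 and 7.63 in aged libraries, against 10.7 to 16.9 in HSCs. Lower signal in MPP4 than in HSCs was called for 8.2% of all regions fitted. With the mean over the summits of a region in place of the highest one, the difference was -0.45 and did not pass (limma adjusted p = 0.0735).

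In the other MPP fractions Prdm16_7 differed from HSCs by 0.09 (MPP1, interval -0.17 to 0.35), -0.08 (MPP2, interval -0.34 to 0.18) and -0.14 (MPP3, interval -0.40 to 0.12), none past the threshold. Mecom_37 and Mecom_38 passed in no MPP fraction. Their differences from HSCs lay between -0.30 (Mecom_38 in MPP2, interval -0.58 to -0.02, limma adjusted p = 0.220) and 0.21 (Mecom_37 in MPP4, interval -0.05 to 0.48, limma adjusted p = 0.302). Among all regions fitted, 0.0817% differed between MPP1 and HSCs in either direction, and 2.36% and 6.8% were lower in MPP2 and in MPP3 than in HSCs.

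**Figure D5:**
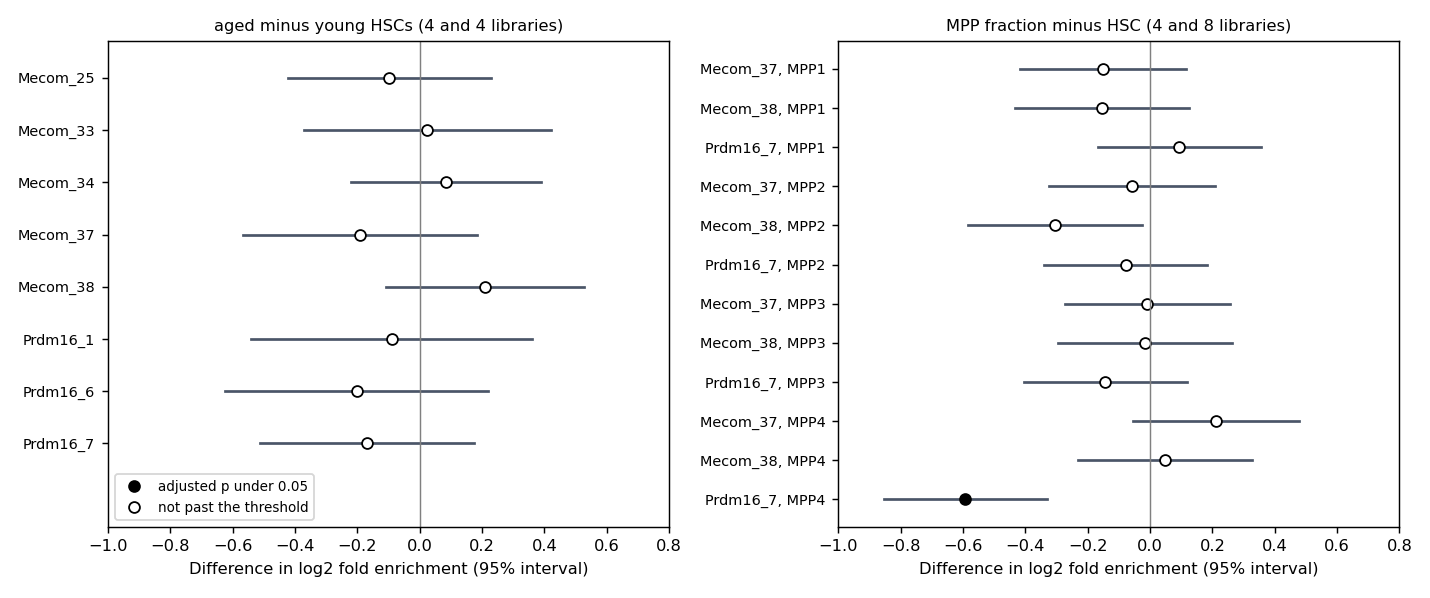
Fitted differences in log2 fold enrichment (points, with 95% intervals) for aged minus young HSCs at 8 regions (left) and for each MPP fraction minus HSC at 3 regions (right), filled where the adjusted p was under 0.05. Prdm16_7 in MPP4 is the one filled point, at -0.59.

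The numbers of called regions per 1000 of the 2 genes did not follow each other closely. Across the 36 libraries, which share fractions and ages, Pearson's r between Mecom and Prdm16 was 0.45. Among 3097 genes with at least 10 regions, Prdm16 ranked 1015th in likeness to Mecom and Mecom 279th in likeness to Prdm16. The 5 genes most like Mecom were Rarb (r = 0.90), Klf12 (0.88), Slc4a4 (0.88), Rgs1 (0.88) and Hs1bp3 (0.87). Among the 5 most like Prdm16 were Nkx2-3 (r = 0.72), Tinagl1 (0.70), Tmem167 (0.69) and Myh15 (0.66). These correlations are descriptions, since the libraries of a fraction share its pattern.

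Other genes of the family and of the stem cell program were counted in the same way. A list of 13 other PRDM genes had 151 regions, of which 19 were called more often in HSC and MPP libraries and 14 more often in oligopotent ones (12.6% and 9.27%, Fisher's exact test as above), with a median difference of 4.17 percentage points. A list of 13 HSC transcription factors, among them Meis1, Hlf, Gata2 and Runx1, had 275 regions, with 38 and 40 (13.8% and 14.5%) and a median of -4.17 points. A list of 12 cofactors and targets of the 2 proteins, such as the corepressors Ctbp1 and Ctbp2 and the fat cell regulators Pparg and Ppargc1a, had 137 regions, with 12 and 20 (8.76% and 14.6%) and a median of -8.33 points. Meis1, a homeobox factor of HSCs, had 44 regions with 9 and 4 (20.45% and 9.09%), and Hlf, a leucine zipper factor of HSCs, had 14 with 0 and 0. Mecom, with 9 and 2 of 38 (23.7% and 5.26%), and Prdm16, with 4 and 1 of 18 (22.2% and 5.56%), had larger shares in the first direction than the 3 lists and shares close to that of Meis1. These differences were not tested.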

How the data were processed

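ATAC-seq libraries of 20000 sorted cells each were made by the authors with fragments of 240 to 360 bp and sequenced as single reads of 60 bp. Reads were aligned with Bowtie2 to mm10, subsampled with SAMtools to the same number and called per library with MACS2 2.2.6 without its fragment model at a q-value limit of 0.001. The deposited lists give, per summit, a fold enrichment (a ratio to the local background), a -log10 p-value and a -log10 q-value, and a score, which was not used. The 1358077 deposited entries held 1204561 distinct peaks, 9581 to 63288 per library.

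Overlapping peaks were merged and regions assigned by their centre to the nearest of 45078 TSSs (GENCODE release M21, basic set, protein-coding). The members and the gene lists were chosen with earlier results of these data known. Regions named in the text were those at or nearest to each TSS, and per gene the 4 with the highest median fold enrichment in HSCs, the 3 with the smallest p per fraction comparison and direction and the 2 with the largest difference in HSC calls per direction, with the 5 most alike genes. Some items this rule names are not reported here. Other members are given as counts, and the GMP values of Mecom_37 and Mecom_11 were singled out after they were seen.

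Calls were compared with Fisher's exact test per region, an exact conditional test with fraction as stratum, and exact permutation tests over libraries. Log2 fold enrichment was fitted with limma 3.58.1 in R 4.3.3, taking the highest summit of a region and no pseudocount. All tests were two-sided with a threshold of 0.05. Fisher's exact test, the conditional test and the limma fit of age in HSCs were tried on simulated data with known changes. The permutation test without strata was compared with another implementation on random numbers. The permutation tests with strata or blocks and the limma fit of fractions were not tried in this way. Sequences came from the RefSeq copy of GRCm38.p6. Alternatives were a -log10 q of at least 10, 50% cover of the region, calls per 1000, equal numbers of peaks within a fraction, regions within 10 kb of the gene body, each library left out, a replicate block, and for limma no centring, mean summits and regions called in 75% of libraries.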

Additional observations from a re-analysis of the deposited data

Results flagged for a closer look

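One value stood apart from its group. The fold enrichment of Prdm16_6 in young HSC replicate 3 was 19.15, against 11.9 to 13.04 in the other 3 young HSC libraries. The gap to the nearest library was large for a group of 4 by Dixon's criterion. Chance gives such a flag in about 1 of 20 groups, and 25 groups were examined. The same library called the fewest regions of all HSC libraries, and the part of this in the value was not tested.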

How the results depend on the processing

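The number of regions with a different call rate in HSC and MPP than in oligopotent libraries was 16, 8 with peaks of -log10 q of at least 10, 11 with 50% cover and 10 with MEP libraries left out. The region count that differed between CD48- and CD48+ fractions was 1 and ranged from 1 to 2 with 1 library left out. It was 2 without young MPP1 replicates 1 or 2, young MPP2 replicate 2, young MPP3 replicate 1, any aged HSC replicate or aged MPP2 replicate 1. In the fits of MPP fractions against HSCs, 1 difference passed, 0 with mean summits and 6 with regions called in 75% of libraries. Prdm16_7 in MPP4 had a difference of -0.45 with mean summits and did not pass. Per 1000 called regions, HSCs had 0.116 more Mecom regions than MPP3, 0.247 more than GMPs and 0.103 more than CLPs, and 0.0983 more Prdm16 regions than GMPs, all past the threshold. Differences that were near 0 turned sign. The age difference over all fractions was -0.188 for Mecom with peaks of -log10 q of at least 10, and for Prdm16 it was 0.125 with 50% cover and 0.0625 with regions within 10 kb of the gene body. HSC minus MPP2 for Mecom was 2.0 with -log10 q of at least 10, 0.875 with 50% cover and 0.0176 per 1000 called regions. With 1 library left out, the HSC age difference for Mecom ranged from -4.33 to -2.0, that over all fractions from -0.0938 to 0.906 for Mecom and from -0.688 to 0.0625 for Prdm16, HSC minus MPP2 for Mecom from -1.04 to 1.63, and for Prdm16 HSC minus MPP1 from -0.667 to 1.33 and HSC minus CLP from 3.33 to 4.67. The cause was not tested. Replicate numbers were not shown to pair the libraries, since same-numbered young and aged HSC libraries correlated in their deviations at 0.028, 0.018, 0.066 and -0.035. With the replicate block the HSC age difference stayed at -3.25 for Mecom (p = 0.125, exact permutation test, the smallest that 4 pairs allow) and at -2.0 for Prdm16 (p = 0.25), and over all fractions p was 0.678 and 0.474. In limma the replicate block changed no call. Calls carry no read counts, so the absence of a call may be a signal just under the limit.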
